A study of Mus musculus with 4 samples.

Results

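The LIF receptor and Stat3 genes examined here are Lifr, Il6st, Jak1, Stat3, Socs3, Pim1, Pim3 and Gbx2. These 8 are a list of names out of 22191 genes that could be summed from the tables. The list was chosen with earlier results of these data known. All 8 had a mean level of at least 1 FPKM (fragments per kilobase of transcript length, corrected for the size of the library) and so were among the 11336 genes tested. RNA came from mouse 46C embryonic stem (ES) cells in which the endogenous Atad2 gene carried a C-terminal tag, a line founded on 1 clone, grown in the presence of leukaemia inhibitory factor (LIF) and serum. The cells had received a scrambled siRNA (si-ctrl) or a siRNA against Atad2 (si-Atad2), with 2 numbered libraries for each treatment. The tag, LIF and serum were thus shared by all 4 libraries, and each si-Atad2 library was paired with the si-ctrl library of its number. The study's figure legend speaks of more than 1 active siRNA and of repeat sequencing of each RNA, whereas the labels speak of replicates. Whether the replicates of a treatment were separate transfections or a second sequencing of the same RNA, and which siRNA each si-Atad2 library received, is therefore not known, so the pairs may differ by siRNA. The p-values may therefore cover technical spread only.

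LIF is the cytokine that keeps mouse ES cells undifferentiated in serum medium. It joins its own receptor, encoded by Lifr, to gp130, the signalling chain encoded by Il6st, and the Janus kinases bound to both chains, above all Jak1, phosphorylate the transcription factor Stat3. Stat3 dimers then enter the nucleus, bind DNA and switch on target genes, among them Socs3, whose protein feeds back to block the receptor, the Pim kinases, which favour survival and self-renewal, and Gbx2, a homeobox factor. RNA levels say nothing on phosphorylation of Stat3, which is the active step.

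Since Stat3 acts through DNA, the sequence just upstream of the RefSeq starts of the genes is given first. RefSeq holds 10 start sites for the 8 genes on GRCm38.p6, and the 250 bases before each were searched on both strands for TTCNNNGAA, the palindrome that STAT dimers bind, and for GGGCGG or CCGCCC, the GC box. The 3 genes with the lowest p-values in the knockdown are shown, 5′ to 3′ on the gene's strand, without any bases that a GENCODE vM21 exon of the same gene covers. The Gbx2 stretch lies in an exon of the antisense noncoding gene D130058E05Rik. The Socs3 stretch lies inside the GENCODE span of Socs3 (chr11:117966079-117970047). It is thus upstream of the RefSeq start and not of the GENCODE start, and the bases nearest the RefSeq start were left out as exon. Capitals mark matches to either motif.
Socs3, chr11:117969452-117969616, minus strand: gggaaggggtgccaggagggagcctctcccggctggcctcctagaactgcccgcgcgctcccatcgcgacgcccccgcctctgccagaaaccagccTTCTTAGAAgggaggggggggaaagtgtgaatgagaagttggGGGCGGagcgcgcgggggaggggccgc
Gbx2, chr1:89931180-89931426, minus strand: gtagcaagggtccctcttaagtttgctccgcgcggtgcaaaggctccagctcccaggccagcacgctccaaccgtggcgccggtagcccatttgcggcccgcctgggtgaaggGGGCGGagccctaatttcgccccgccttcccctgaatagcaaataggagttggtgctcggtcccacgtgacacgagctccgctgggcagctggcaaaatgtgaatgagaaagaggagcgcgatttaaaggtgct
Pim1, chr17:29490535-29490752, plus strand: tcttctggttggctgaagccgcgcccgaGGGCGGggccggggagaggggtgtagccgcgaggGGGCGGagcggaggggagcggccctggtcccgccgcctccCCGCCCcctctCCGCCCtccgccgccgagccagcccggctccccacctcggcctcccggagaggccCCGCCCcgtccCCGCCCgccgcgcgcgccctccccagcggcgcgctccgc
The capitals beginning with TTC mark the STAT palindrome of Socs3, which starts 154 bases before the RefSeq start. It was the only match to TTCNNNGAA among the 10 windows of the 8 genes, and 7.02% of the 32851 windows of all genes held one. The stricter form TTCCNGGAA was found in 0 of the 10 windows and in 0.913% of all. GC boxes were found in 8 of the 10 windows, at least 1 for each of the 8 genes, against 32.7% of all windows. GC content reached 82.4% in a window of Lifr and one of Pim1, against a median of 52.4% over all windows. The second window of Lifr was at 50.8% and that of Pim1 at 48.0%, each with 0 GC boxes. Windows of the other genes ran from 60.8% (Stat3) to 71.6% (Socs3). TTCCNGGAA is a special case of TTCNNNGAA, and neither can overlap a GC box. A match in these windows is a description of letters and not a measured binding site.

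The targeted RNA, Atad2, measured 34.1 FPKM (si-ctrl 1), 36.0 FPKM (si-ctrl 2), 10.1 FPKM (si-Atad2 1) and 13.0 FPKM (si-Atad2 2), with no overlap between treatments. The siRNA thus left 33.0% of the si-ctrl level, a mean log2 ratio of -1.53 ± 0.077 (SE, n = 2 pairs, limma, Benjamini-Hochberg adjusted p = 5.53e-05). Without si-ctrl 1 the ratio was -1.57 (adjusted p = 0.0691, limma) and without si-ctrl 2 it was -1.49 (adjusted p = 0.0653, limma). Over 8 genes, markers of ES cells summed to 3435 and 3441 FPKM in si-ctrl 1 and 2, and to 3225 and 3230 FPKM in si-Atad2 1 and 2. None of the 8 was called by limma, and 4 had an unadjusted p under 0.05, against 15.7% of all genes tested. Without overlap, 5 (among them Pou5f1 and Nanog) lay lower in si-Atad2, against 26.8% of all genes, and 1 higher, against 22.2%. The part of this in the values of the LIF and Stat3 genes was not tested. Markers of fibroblast feeders summed to 7.28 to 8.77 FPKM over 8 genes. Most of this was Thy1, at 5.56 to 6.75 FPKM, with Col1a1 at 1.16 to 1.46 FPKM and Lum at 0 in all 4 libraries. Those of mesoderm summed to 3.37 to 4.09 FPKM, of primitive endoderm to 5.45 to 6.17 FPKM, of neural cells to 5.94 to 7.07 FPKM and of trophoblast to 2.41 to 2.73 FPKM. Eomes, at 1.91 to 2.33 FPKM, was counted for both mesoderm and trophoblast and made up most of the trophoblast sum. Markers of post-implantation epiblast summed to 120 to 132 FPKM, with 0 of 3 called. Most of this was Dnmt3b, at 69.6 to 76.5 FPKM, and Otx2, at 48.2 to 53.9 FPKM, while Fgf5 was at 1.52 to 2.27 FPKM. In bulk RNA, fewer cells of a type and less RNA per cell cannot be told apart.

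No gene of the 8 passed the threshold on knockdown. The call rule was an adjusted p under 0.05 by limma with Benjamini-Hochberg adjustment over all genes tested, and it took 163 of 11336 genes, or 1.44%, of which 131 were higher and 32 lower in si-Atad2. That balance depended on the libraries, with 404 higher and 383 lower without si-Atad2 1, and 1230 higher and 867 lower without si-Atad2 2. Without si-ctrl 1 or si-ctrl 2, limma called 0 genes (710 and 864 at an unadjusted p under 0.05). Leaving out si-Atad2 2 brought 3 of the 8 (Socs3, Pim1 and Gbx2) past the threshold, in a fit that called 18.5% of all genes, and leaving out any other library brought 0. The fits without a library were not paired and took the spread between replicates from the other treatment alone. In the paired fit before adjustment, 3 of the 8 genes (Socs3, Pim1 and Gbx2) had a p under 0.05, against 15.7% of all genes. In 3 of the 8 (Jak1, Socs3 and Gbx2) both si-Atad2 libraries lay above both si-ctrl libraries, against 22.2% of all genes, and in 1 (Pim1) both lay below, against 26.8% of all genes. The median log2 ratio of the 8 was 0.057, and that of all genes tested was -0.0087.

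**Figure D1:**
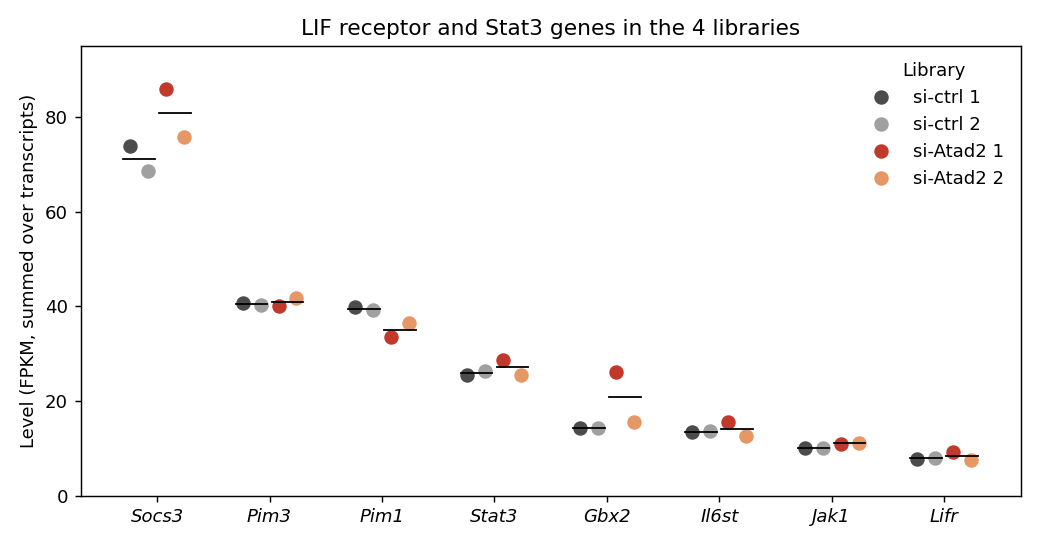
Level of the 8 genes in FPKM (vertical axis, linear from 0) in each of the 4 libraries, ordered by their si-ctrl level, where points are libraries and short black lines are the means of 2 libraries. Socs3 sits highest at 68.5 to 86.0 FPKM and Lifr lowest at 7.46 to 9.16 FPKM, and the si-Atad2 points lie apart from the si-ctrl points for Socs3, Pim1, Gbx2 and Jak1.

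In si-ctrl cells the feedback inhibitor was the most abundant of the 8 transcripts per length and the LIF receptor the least. Mean levels were 71.2 ± 3.8 FPKM for Socs3, 40.5 ± 0.39 FPKM for Pim3, 39.5 ± 0.40 FPKM for Pim1 and 26.0 ± 0.57 FPKM for Stat3 (SD, n = 2). They were 14.3 ± 0.019 FPKM for Gbx2, 13.5 ± 0.12 FPKM for Il6st, 10.1 ± 0.064 FPKM for Jak1 and 7.92 ± 0.18 FPKM for Lifr. The values of neighbours in this order did not overlap, although Pim3 was only 1.025 times Pim1 and Gbx2 only 1.06 times Il6st, and with 2 libraries a group no exact test of such a difference can pass 0.05. Among all genes tested, Socs3 stood at percentile 93.1 of the si-ctrl level, Pim3 at 85.7, Pim1 at 85.2, Stat3 at 76.5, Gbx2 at 61.0, Il6st at 59.4, Jak1 at 50.8 and Lifr at 43.8.

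The receptor chains were higher in si-Atad2 in one pair and lower in the other. Lifr, on chr15:7090614-7197489 on the plus strand, was at 7.79 and 8.04 FPKM in si-ctrl 1 and 2, and at 9.16 and 7.46 FPKM in si-Atad2 1 and 2. The si-Atad2 libraries were thus the highest and the lowest of the 4, and the groups overlapped. The log2 ratios, on the log2(FPKM + 1) scale used throughout, were 0.21 for the first pair and -0.096 for the second, and their mean was 0.056 ± 0.087 (SE, limma, 95% interval -0.14 to 0.25, adjusted p = 0.806). Il6st, on chr13:112464070-112510086 on the plus strand, was at 13.4 and 13.6 FPKM in si-ctrl 1 and 2, and at 15.5 and 12.5 FPKM in si-Atad2 1 and 2. It had the same order of libraries as Lifr, with the si-Atad2 libraries outermost. Its ratios were 0.20 and -0.11, and the mean was 0.042 ± 0.083 (SE, limma, 95% interval -0.15 to 0.23, adjusted p = 0.853). These intervals hold changes of up to 1.19 times for Lifr and 1.17 times for Il6st, so a p above the threshold does not show that the receptor level was the same.

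Jak1, the main kinase of gp130, was a little higher in si-Atad2 in both pairs. It lies on chr4:101152367-101265282 on the minus strand and was at 10.1 and 10.0 FPKM in si-ctrl 1 and 2, and at 11.0 and 11.0 FPKM in si-Atad2 1 and 2. The groups did not overlap, and the replicates (library 2 over library 1) differed by -0.012 on the log2 scale in si-ctrl and 0.0044 in si-Atad2. The ratios were 0.11 and 0.12, and the mean was 0.12 ± 0.069 (SE, limma, 95% interval -0.039 to 0.27, adjusted p = 0.464). Jak1 shares its locus with Raver2, and the transcript was given to Jak1 by its length.

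Stat3, the transcription factor at the centre of the pathway, was higher in si-Atad2 in pair 1 and not in pair 2. It lies on chr11:100885098-100939540 on the minus strand and was at 25.6 and 26.4 FPKM in si-ctrl 1 and 2, and at 28.6 and 25.6 FPKM in si-Atad2 1 and 2. Only si-Atad2 1 stood apart from the other libraries, and the groups overlapped. The ratios were 0.16 and -0.042, and the mean was 0.057 ± 0.070 (SE, limma, 95% interval -0.10 to 0.21, adjusted p = 0.749). Without si-Atad2 1 the mean ratios of Lifr, Il6st and Stat3 were -0.075, -0.10 and -0.021, so the direction of these 3 genes rested on that library.

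Socs3, the feedback inhibitor and the gene with the STAT palindrome shown above, was higher in si-Atad2 in both pairs without passing the threshold. It lies on chr11:117966079-117970047 on the minus strand and was at 73.8 and 68.5 FPKM in si-ctrl 1 and 2, and at 86.0 and 75.7 FPKM in si-Atad2 1 and 2. Both si-Atad2 libraries lay above both si-ctrl libraries, si-Atad2 2 only just. The ratios were 0.22 and 0.14, and the mean was 0.18 ± 0.058 (SE, limma, 95% interval 0.049 to 0.31, adjusted p = 0.183). Without si-Atad2 1 the mean was 0.089, and without si-Atad2 2 it was 0.27, so the size of the ratio depended on which library was kept.

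The 3 remaining genes are targets, and they did not share a direction. Pim1, a serine/threonine kinase gene on chr17:29490753-29496112 on the plus strand, was at 39.8 and 39.2 FPKM in si-ctrl 1 and 2, and at 33.6 and 36.5 FPKM in si-Atad2 1 and 2. Both si-Atad2 libraries lay below both si-ctrl libraries, and the annotated antisense gene Gm26885 overlaps the start of Pim1. The ratios were -0.24 and -0.10, and the mean was -0.17 ± 0.064 (SE, limma, 95% interval -0.31 to -0.026, adjusted p = 0.247). Without si-Atad2 2 it was -0.23, and without si-Atad2 1 it was -0.11. Pim3, its close relative on chr15:88862186-88865726 on the plus strand, was at 40.8 and 40.2 FPKM in si-ctrl 1 and 2, and at 40.0 and 41.7 FPKM in si-Atad2 1 and 2. The 4 libraries were nearly level and the groups overlapped. The ratios were -0.027 and 0.050, and the mean was 0.012 ± 0.061 (SE, limma, 95% interval -0.13 to 0.15, adjusted p = 0.950), which leaves room for a change of up to 1.11 times.

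Gbx2 had the largest mean ratio of the 8, and most of it came from pair 1. The gene lies on chr1:89927956-89931179 on the minus strand and was at 14.3 and 14.3 FPKM in si-ctrl 1 and 2, and at 26.1 and 15.6 FPKM in si-Atad2 1 and 2. The si-ctrl libraries were level, si-Atad2 2 lay just above them, and si-Atad2 1 lay far above. The ratios were 0.83 for the first pair and 0.11 for the second, and their mean was 0.47 ± 0.13 (SE, limma, 95% interval 0.17 to 0.77, adjusted p = 0.132). The si-Atad2 libraries differed from each other by -0.71 on the log2 scale (library 2 over library 1), more than the mean difference between treatments. Without si-Atad2 1 the mean ratio was 0.11, and without si-Atad2 2 it was 0.82. The antisense transcript D130058E05Rik overlaps Gbx2 and was at 0.91 to 1.41 FPKM, and its reads could not be told from those of Gbx2 if strand was not used in the counting.

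**Figure D2:**
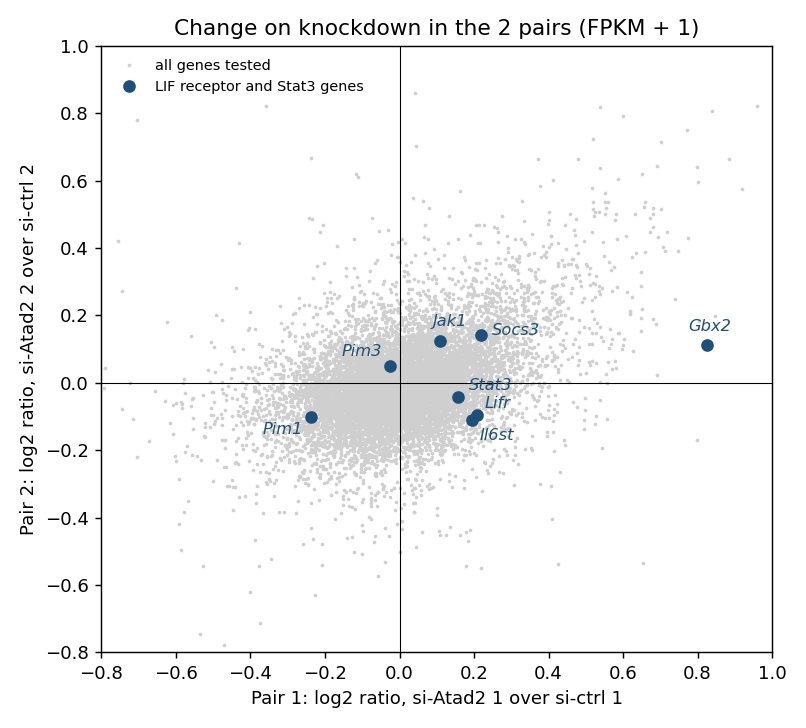
Log2 ratio of si-Atad2 over si-ctrl (FPKM + 1) in pair 1 (horizontal) against pair 2 (vertical), with grey dots for all genes tested except 22 outside the axes and blue points for the 8 genes. Gbx2 lies at 0.83 in pair 1 and 0.11 in pair 2, outside the bulk of the dots, while the other 7 genes lie within it, with Lifr, Il6st and Stat3 to the right of 0 in pair 1 and below 0 in pair 2.

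Over these genes, as over all genes tested, the si-Atad2 libraries lay further from each other than the si-ctrl libraries did. The interquartile range over all genes was 0.158 between the si-Atad2 libraries and 0.115 between the si-ctrl libraries. Between the si-ctrl libraries (library 2 over library 1) the 8 genes differed by -0.11 to 0.043 on the log2 scale, and 7 of 8 lay inside the quartiles of all genes. Between the si-Atad2 libraries they differed by -0.71 to 0.12, 1 of 8 lay inside the quartiles and 5 of 8 lay between the percentiles 5 and 95 of all genes. In pair 1, 6 of the 8 ratios were above 0 with a median of 0.18, and 7 lay between those percentiles of all genes, Gbx2 being the exception. In pair 2, 4 were above and 4 below 0 with a median of 0.0037, and all 8 lay between the percentiles. The interquartile range of all genes was 0.21 in pair 1 and 0.15 in pair 2, so pair 1 was the wider comparison overall. Atad2 itself was lower in si-Atad2 1 than in si-Atad2 2, and the part of this difference in the spread of the 8 genes was not tested.

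The deposited tables hold separate transcripts, and 17 of them add up to the 8 genes. Socs3, Jak1 and Pim3 had 1 transcript each, and in Il6st the transcript of 5452 bases held 98.3% to 98.7% of the level. In Stat3 the transcript of 4487 bases held 74.8% to 79.2%, and 2 others of nearly the same length held the rest. The split was far less even in Pim1, where the transcript of 1753 bases held 76.9% in si-ctrl 1, 73.7% in si-Atad2 1, 50.4% in si-ctrl 2 and 92.1% in si-Atad2 2, and the one of 1592 bases all of the rest, the third being listed at 0 in all 4 libraries. The si-ctrl libraries thus differed from each other in the split, while their Pim1 sums differed by -0.020 on the log2 scale (library 2 over library 1). With the highest transcript taken alone, the Pim1 ratio was 0.22 in place of -0.17 (adjusted p = 0.670 by limma). In Lifr the transcript of 9876 bases held 52.1% in si-ctrl 1, 50.1% in si-Atad2 1, 36.7% in si-ctrl 2 and 68.9% in si-Atad2 2, and that of 9663 bases 37.8%, 38.1%, 55.0% and 22.4% in the same order. Taken alone, the highest transcript gave Lifr a ratio of 0.39 (adjusted p = 0.244 by limma) in place of 0.056. In Gbx2 both transcripts were higher in si-Atad2 1 than in si-ctrl 1, the one of 2126 bases at 14.6 against 8.06 FPKM and the one of 1230 bases at 11.5 against 6.24 FPKM. In pair 2 the first was at 9.63 FPKM in si-Atad2 2 against 6.95 FPKM, and the second at 5.94 against 7.37 FPKM.

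**Figure D3:**
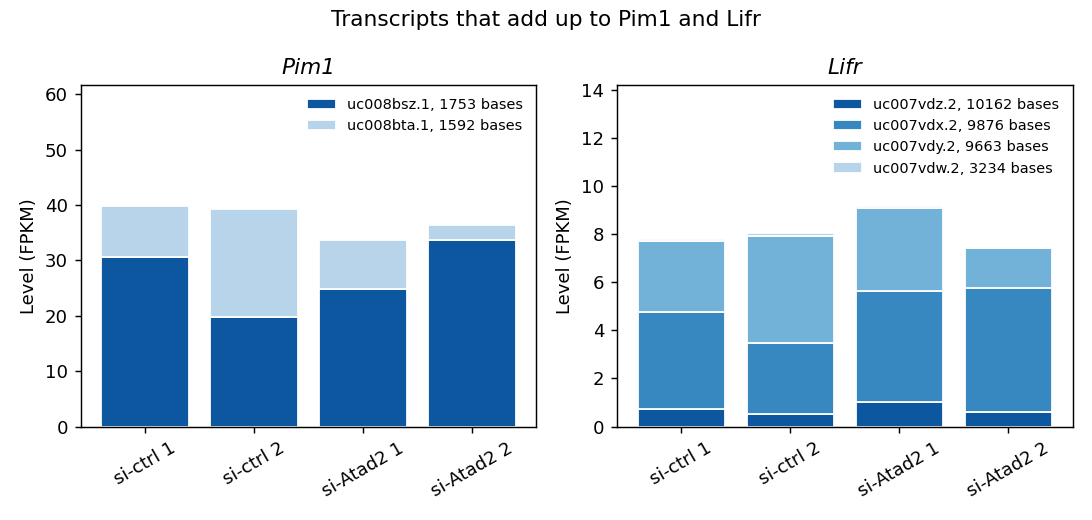
Level in FPKM (vertical axis, linear from 0) of the transcripts that add up to Pim1 (left) and Lifr (right) in each library, with 1 shade per transcript and its length in the legend. The heights of the bars vary far less than the split inside them, with the longer Pim1 transcript at 50.4% of the bar in si-ctrl 2 and 92.1% in si-Atad2 2.

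Around the 8 genes, a wider list of 57 genes of LIF and Stat3 signalling, which includes them, was examined, of which 56 were in the tables and 49 were tested. Of these, 1 rose (Junb), 1 fell (Jak3) and 47 did not pass the threshold, beside 1.44% called among all genes, and the median log2 ratio of the 49 was -0.0014, against -0.0087 for all genes. Both si-Atad2 libraries lay above both si-ctrl libraries in 11 of the 49 and below them in 14, near the 22.2% and 26.8% of all genes.

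Junb, an AP-1 factor gene and an immediate target of Stat3, was at 14.7 and 13.4 FPKM in si-ctrl 1 and 2, and at 23.6 and 17.1 FPKM in si-Atad2 1 and 2. Both si-Atad2 libraries lay above both si-ctrl libraries, si-Atad2 1 the further. The ratios were 0.65 and 0.33, and the mean was 0.49 ± 0.083 (SE, limma, adjusted p = 0.0228). Jak3, a Janus kinase best known with the cytokine receptors of lymphocytes, was at 8.80 and 8.01 FPKM in si-ctrl 1 and 2, and at 5.61 and 6.06 FPKM in si-Atad2 1 and 2. Both si-Atad2 libraries lay below both si-ctrl libraries. The ratios were -0.57 and -0.35, and the mean was -0.46 ± 0.081 (SE, limma, adjusted p = 0.0270), and its locus is shared with Insl3. Because 2 transcripts at that locus could not be given a name, the Jak3 sum may be incomplete, and with the highest transcript only the ratio was -0.30 (adjusted p = 0.259, limma). The Junb call was lost under 7 of 13 alternative settings, among them the fit without the replicate block (adjusted p = 0.117, limma) and those without si-ctrl 1 or si-ctrl 2 (adjusted p = 0.705 and 0.645, limma). The Jak3 call was lost under 5 of 13, among them those without si-ctrl 1 or si-ctrl 2 (adjusted p = 0.559 and 0.282, limma). The direction of both was kept in each.

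The other roles held no called gene. Of 7 ligands, 2 were tested, with Lif itself at 2.70 and 2.67 FPKM in si-ctrl 1 and 2, and at 2.30 and 2.51 FPKM in si-Atad2 1 and 2 (adjusted p = 0.549 by limma). Of 6 receptors, 4 were tested, and the lowest adjusted p was that of Cntfr, the receptor of ciliary neurotrophic factor, at 7.94, 6.01, 7.62 and 6.07 FPKM in si-ctrl 1, si-Atad2 1, si-ctrl 2 and si-Atad2 2, with a mean ratio of -0.32 (adjusted p = 0.0795 by limma). The 7 STAT genes had mean ratios of -0.12 to 0.12, the lowest adjusted p being 0.490 by limma. The 5 genes of the SHP2 branch, which leads from gp130 to the MAP kinases, ranged from -0.17 to 0.17, with Ptpn11, the gene of SHP2, at 15.3, 17.1, 15.2 and 17.5 FPKM in that order (adjusted p = 0.261 by limma).

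The 15 inhibitors, all tested, ranged from -0.27 to 0.23 and had a median of -0.0032. At the lower end stood Ptpn6, the gene of the phosphatase SHP1, at 27.0 and 25.9 FPKM in si-ctrl 1 and 2, and at 22.3 and 21.1 FPKM in si-Atad2 1 and 2, and its adjusted p was 0.0790 (limma). Socs5 stood at the upper end with 1.83 and 2.01 FPKM in si-ctrl 1 and 2 and 2.58 and 2.28 FPKM in si-Atad2 1 and 2 (adjusted p = 0.257 by limma). Of 13 targets, 12 were tested and 1 (Junb) was called. Tfcp2l1, a factor that carries much of the self-renewal signal of Stat3, was at 22.3 and 22.4 FPKM in si-ctrl 1 and 2 and 19.9 and 20.3 FPKM in si-Atad2 1 and 2, with a mean ratio of -0.14 (adjusted p = 0.318 by limma). Klf4, a pluripotency factor, was at 69.1 and 68.1 FPKM in si-ctrl against 67.9 and 62.9 FPKM in si-Atad2 (adjusted p = 0.621 by limma). Pim2, the third Pim kinase gene, was at 54.4 and 55.1 FPKM in si-ctrl against 52.1 and 42.6 FPKM in si-Atad2, with a mean ratio of -0.21 (adjusted p = 0.223 by limma), lower in both pairs as Pim1 was, whereas Pim3 was not.

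**Figure D4:**
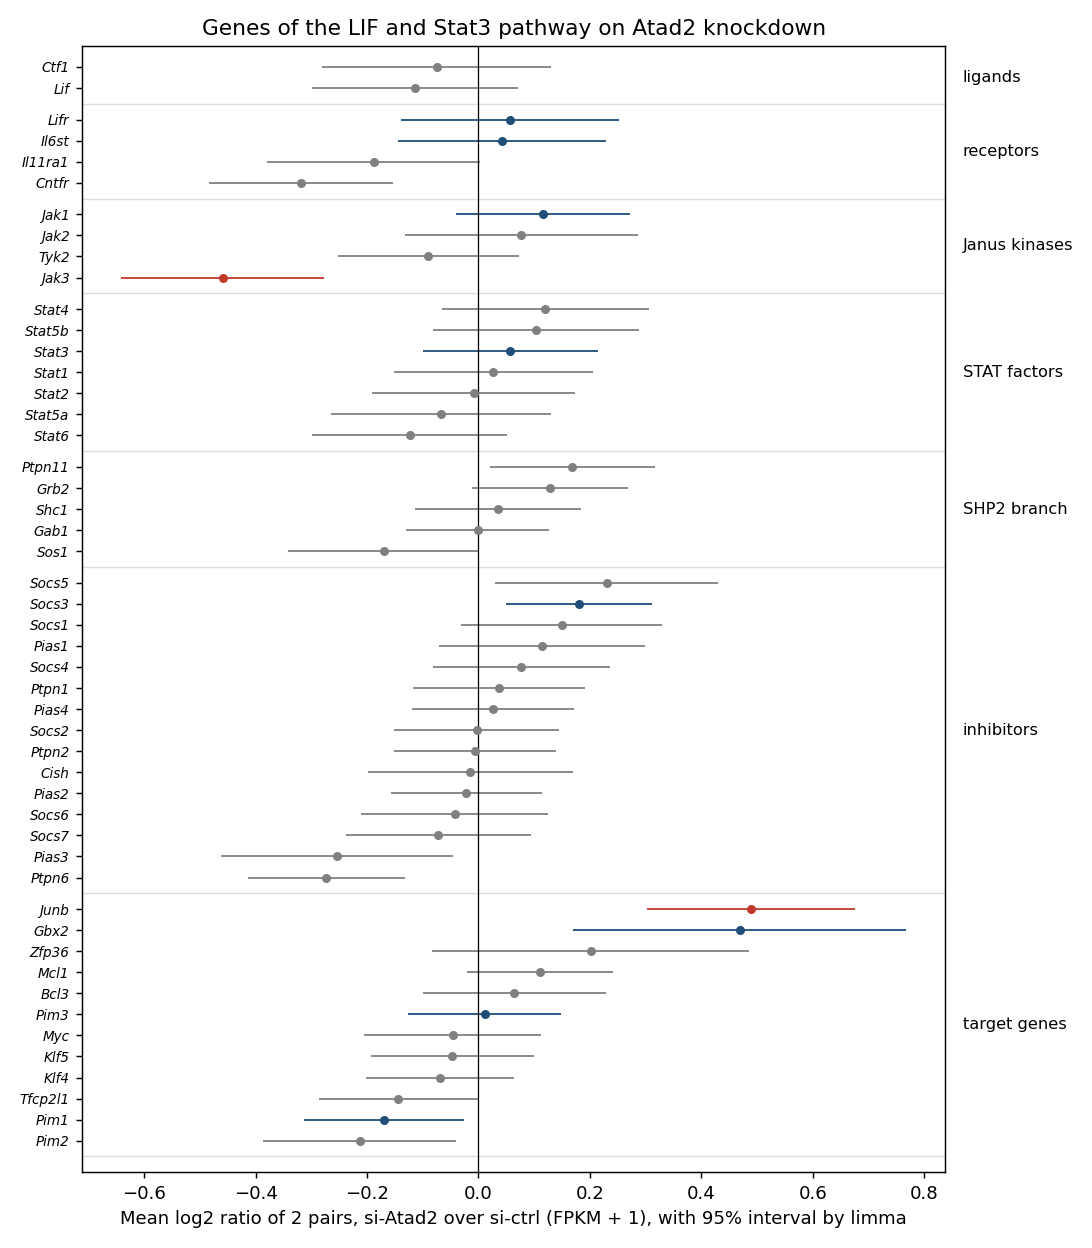
Mean log2 ratio of si-Atad2 over si-ctrl (FPKM + 1, horizontal axis) of the 49 tested genes of LIF and Stat3 signalling, grouped by role, where points are means of 2 pairs, bars are 95% intervals by limma, blue marks the 8 genes, red the called genes and grey the others. Junb at 0.49 and Jak3 at -0.46 are the called genes, and Gbx2 at 0.47 has the widest bar.

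By the distance between centred log2 levels over the 4 libraries, the 2 genes most like Gbx2 among those tested were Ankrd37 (distance 0.036) and Cdc42ep2 (distance 0.11). In si-ctrl 1, si-Atad2 1, si-ctrl 2 and si-Atad2 2, Ankrd37 was at 13.8, 25.2, 13.5 and 15.3 FPKM and Cdc42ep2 at 2.66, 4.91, 2.41 and 2.85 FPKM. Like Gbx2, they were high in si-Atad2 1 above all, and neither was called, with adjusted p-values of 0.105 and 0.114 by limma. The genes most like Pim1 were Mtss1l (distance 0.0046) and Fam185a (distance 0.016), with mean ratios of -0.17 each and adjusted p-values of 0.365 and 0.319 by limma.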

How the data were processed

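The authors mapped reads of paired ends of 50 cycles and, per the labels, used TopHat and Cuffdiff (no version given), with a separate Cuffdiff run for replicates 1 and replicates 2. The supplement names Bowtie for mapping. The deposited FPKM values, with 95% intervals, are scaled to library size within each run. Tables of the authors' own comparisons (fold changes, p-values and q-values) were not used. The submitters' notes name mm9, but the loci match GRCm38, which the coordinates follow. The tables hold no counts, so depth is not known. The authors' intervals had half-widths of 1.92% to 10.4% of the level for the main transcript of each of the 8 genes. As neither run held replicates of a treatment, they are not taken as a measure of the spread between replicates.

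Transcripts were named from GENCODE vM21 by a length within 3 bases (14789 of 59120), else as the only coding gene of the locus (29551), else by the nearest length (4319, within 10% and at least 3 times nearer than the next gene). The last rule was added after the files were seen and names Jak1, and 10461 transcripts stayed without a name. Transcripts under 200 bases were dropped, and FPKM was summed per gene. Log2 ratios with a pseudocount of 1 FPKM were taken within pairs, so the replicate number is a block, and genes with a mean of at least 1 FPKM were tested with limma 3.58.1 (eBayes with trend) in R 4.3.3. P-values were adjusted by the Benjamini-Hochberg method over all genes tested, and 0.05 was the threshold. Pairs follow the authors' Cuffdiff runs. Across genes, si-ctrl and si-Atad2 libraries of 1 number deviated from their treatment's mean with a Pearson r of -0.027. The test was run on simulated data with equal noise in all 4 libraries, taken from the si-ctrl libraries. That setting does not cover the wider spread between the si-Atad2 libraries. Tables and plots were made with Python 3.11.15, pandas 2.3.3, numpy 2.4.6 and matplotlib 3.10.9. Upstream sequences are from RefSeq on GRCm38.p6, and all 8 symbols matched.

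The members of the list, the wider gene list and the markers were chosen with earlier results of these data known. The text names the 8 genes, Atad2, called genes of the wider list, other genes of that list that reach 1 FPKM, and the 2 genes nearest to the member with the highest and the one with the lowest mean ratio. Alternatives were TPM, median of ratios, a pseudocount of 0.1 FPKM, no filter, a minimum of 5 FPKM, short transcripts kept, the highest transcript only, no block, removal of the GC trend and leaving out each library. ChIP-seq was not analysed here.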

Additional observations from a re-analysis of the deposited data

How the results depend on the processing

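Of 104 values of the 8 genes under 13 alternatives, 96 kept their direction and their side of the threshold. With libraries left out in turn, Lifr ranged from -0.075 to 0.19, Il6st from -0.10 to 0.19, Stat3 from -0.021 to 0.14 and Pim3 from -0.017 to 0.040. The lowest values, which are reversals, came without si-Atad2 replicate 1, or for Pim3 without si-Atad2 replicate 2. With the highest transcript only, Pim1 reversed to 0.22. The number of the 8 called was 0 under every setting except without si-Atad2 replicate 2, so the range over left-out libraries was 0 to 3, the 3 being Socs3, Pim1 and Gbx2. Fits without a library were not paired, and they assume that the lone library of a treatment varies like the other treatment. Their p-values are thus not those of the paired test.

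The count of changed genes was 163, and 0 without a filter (1935 at an unadjusted p under 0.05, limma), 14 with transcripts under 200 bases kept, 83 with the highest transcript only and 106 after removal of the GC trend within the replicate block. It ranged from 0 to 2097 when a library was left out. With the pairing it was 163. Without the replicate block it was 151, 0 of the 8 genes were called, and Junb was not called (adjusted p = 0.117 by limma). The cause was not tested. The Atad2 ratio lost its call without a filter (-1.53, adjusted p = 0.308 by limma) and without either si-ctrl replicate, and ranged from -1.70 to -1.36 when a library was left out. The tables give no depth, and 2 libraries per treatment limit the precision.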
